A study of Mus musculus with 3 samples.

Results

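The mir-15, mir-16, mir-195 and mir-497 family was measured by sequencing of small RNA from smooth muscle cells of the mouse aorta (AoSMC), which contract the vessel wall. Its members were taken by name, as every counted window of mmu-miR-15a, mmu-miR-15b, mmu-miR-16, mmu-miR-195a, mmu-miR-195b, mmu-miR-497, mmu-miR-497a or mmu-miR-497b. They were 28 of 2590 windows, 14 for microRNAs (miRs) and 14 for microRNA-offset RNAs (moRs), and came from 8 of 808 hairpins. A moR comes from the same hairpin arm as its miR and lies just outside it. The study had 1 group of 3 libraries of primary cells from C57BL/6 mice, which had grown out of pieces of several aortas in medium with serum and were collected shortly before the dish was full. The labels name no treatment and no transgene, nothing was compared between groups, and the age of the mice is not given in the sources used here. The libraries are called biological replicates, but nothing says that they came from separate cultures, so the spread behind the p-values below is that of these samples alone and may be technical. Every comparison sets 2 RNAs of the same libraries against each other.

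miRs are cut from a hairpin by Drosha and Dicer and guide Argonaute to messenger RNAs, mainly through the seed, bases 2 to 8 from the 5′ end. The family shares 1 seed and is known for restraining the cell cycle, with Ccnd1, Ccne1, Cdk6 and Bcl2 among its established targets. The locus of miR-15a and miR-16-1 is lost in many human chronic lymphocytic leukaemias. miR-195 is known to restrain the division of heart muscle cells and of cultured vascular smooth muscle cells.

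In mm10 the family lay at 3 pairs of neighbours and 2 further hairpins. Mir15a (chr14:61632027-61632110, minus strand) lay in an intron and Mir16-1 (chr14:61631880-61631972, minus strand) over an exon of Dleu2, a noncoding host gene. Mir15b (chr3:69009772-69009835, plus strand) and Mir16-2 (chr3:69009902-69009996, plus strand) lay in an intron of Smc4, which encodes a condensin subunit. Mir497 (chr11:70234717-70234800) and Mir195a (chr11:70235042-70235135), both on the plus strand, overlapped no gene other than a microRNA. The neighbours were 54 bases apart on chromosome 14, 66 on chromosome 3 and 241 on chromosome 11. Mir195b (chr2:56785811-56785907, plus strand) stood alone, and Mir497b (chr11:70234692-70234816, minus strand) lay antisense to Mir497.

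The mature 5p miRs of the family are shown first because the shared seed, in capitals, is what joins them. The sequences are from RefSeq (GRCm38.p6), and miR-322-5p, of a hairpin on the X chromosome outside the family, was the only other miR of the tables with this seed among the 1049 of 1230 names that had a RefSeq sequence.
miR-15a-5p: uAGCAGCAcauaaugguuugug
miR-15b-5p: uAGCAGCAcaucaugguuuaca
miR-16-5p: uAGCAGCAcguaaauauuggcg
miR-195a-5p: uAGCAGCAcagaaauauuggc
miR-195b: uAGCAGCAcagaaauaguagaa
miR-497a-5p: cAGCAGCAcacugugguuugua
miR-322-5p: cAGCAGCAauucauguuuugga
Aligned from the 5′ end without gaps, miR-16-5p and miR-195a-5p were identical at 19 of 21 positions, miR-15a-5p and miR-15b-5p at 18 of 22, and miR-16-5p and miR-322-5p at 12 of 22. The label of a seed family held for 7 of the 8 hairpins. It did not hold for miR-497b (chr11:70234763-70234786, minus strand), which has another seed:
miR-497b: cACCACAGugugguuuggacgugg
The 3p miRs are shown because they, unlike miR-16-5p, told the hairpins apart. Their seeds, in capitals, all differed from each other.
miR-15a-3p: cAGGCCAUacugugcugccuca
miR-15b-3p: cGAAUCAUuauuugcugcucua
miR-16-1-3p: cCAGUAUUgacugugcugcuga
miR-16-2-3p: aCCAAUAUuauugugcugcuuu
miR-195a-3p: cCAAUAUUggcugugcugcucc
miR-497a-3p: cAAACCACacugugguguuag
miR-16-1-3p matched miR-195a-3p at 18 of 22 positions and miR-16-2-3p at only 12 of 22.

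The 3 libraries held 15123616 to 18636286 mapped reads, of which 73.1 to 83.0% lay in miR or moR windows, the lowest share being that of replicate 1. Values are given as reads per 1000000 window reads (RPMR), where 1 read was worth 0.0659 to 0.0797 RPMR and 3 reads, the limit that a count of 0 allows, 0.198 to 0.239 RPMR. RPMR are not divided by length, and the family miRs were 21 to 24 bases long. The 2 markers of smooth muscle itself, miR-143-3p and miR-145a-5p, summed to 47412 to 57626 RPMR, of which miR-145a-5p gave only 987 to 1484. Of the markers of other cell types, the 2 endothelial miRs summed to 125 to 158, the 3 striated muscle miRs to 116 to 150 (nearly all miR-206-3p), the 3 leukocyte miRs to 0.440 to 0.797, the 2 erythroid miRs to 0.0734 to 0.329 and the 1 liver miR to 1.47 to 1.75 RPMR. All of these markers had reads in at least 1 library. The part of other cells in the family's levels was not tested.

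The family's miRs summed to 1724 ± 159 RPMR (SD, n = 3) and its moRs to 6.31 ± 0.147 RPMR. Together they took 0.168, 0.161 and 0.191% of window reads in replicates 1, 2 and 3. miR-16-5p was the most abundant member, at 1076, 973 and 1138 RPMR in the 3 libraries over its 2 loci. It ranked 52 of 1230 miR names by mean level.

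**Figure D1:**
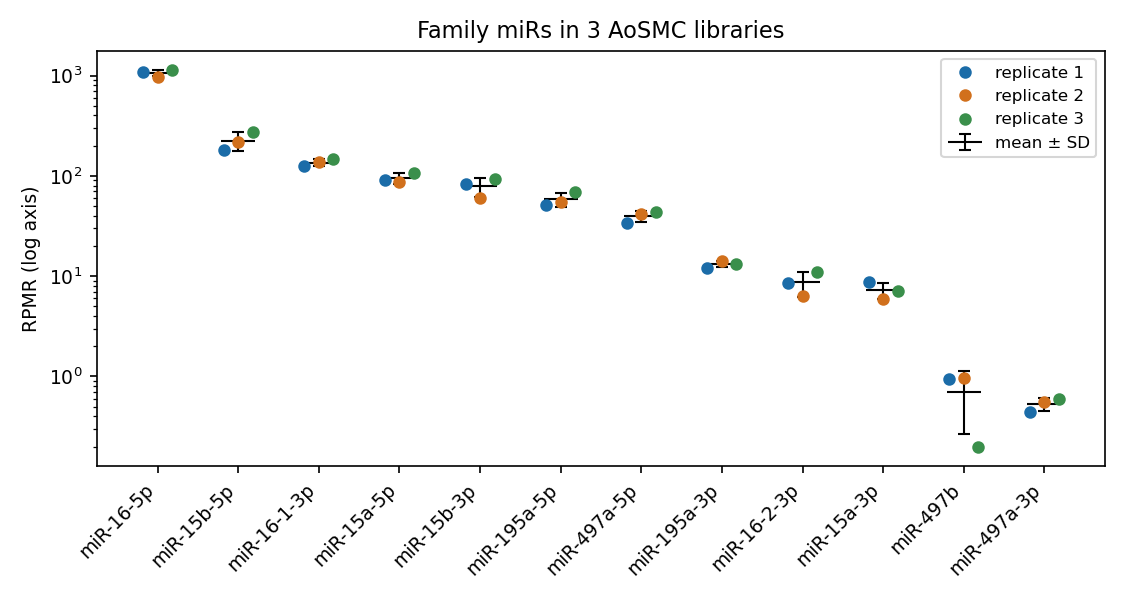
Level of each family miR with reads in every library, in RPMR on a log axis, with 1 point per library (n = 3) and the mean ± SD in black. miR-16-5p, at 973 to 1138 RPMR over its 2 loci, lay above every other member, and miR-497b and miR-497a-3p lay below 1 RPMR.

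The deposited reads of miR-16-5p were split between its 2 hairpins, which carry the same mature sequence, and so say nothing of which hairpin made them. Mir16-2 was given 538, 487 and 569 RPMR and Mir16-1 537, 486 and 569 RPMR. The 2 loci differed by 7.5, 12 and 9 reads, which was 0.0512 to 0.0983% of their sum.

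Among the other miRs with the seed, miR-15b-5p had 179, 219 and 276 RPMR in replicates 1, 2 and 3, and ranked 106. miR-15a-5p had 90.8, 86.3 and 107 RPMR. The 2 miR-15 forms thus did not overlap, and miR-15b-5p was the higher in each library. miR-195a-5p had 50.8, 55.5 and 68.3 RPMR, and its neighbour miR-497a-5p had 34.2, 42.1 and 43.3 RPMR, again without overlap. miR-195b, of the lone hairpin on chromosome 2, had 0, 1 and 1 read, which is under the limit that a count of 0 allows.

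The 3p miRs had a wide range. miR-16-1-3p, made by Mir16-1 alone, had 125, 137 and 146 RPMR and lay above every 5p miR of the family other than miR-16-5p and miR-15b-5p. miR-15b-3p had 83.3, 60.3 and 92.1 RPMR, with replicate 2 the lowest. The remaining 3p miRs were below 15 RPMR in every library. miR-195a-3p averaged 13.3 ± 1.05, miR-16-2-3p 8.65 ± 2.39 and miR-15a-3p 7.23 ± 1.35 RPMR (SD, n = 3). miR-497a-3p had 6, 7 and 9 reads. miR-497b, which was assigned to the 5p arm of Mir497b, had 13, 12 and 3 reads. Its replicate 3 was 4.84 times below replicate 2 in RPMR. The windows of miR-497a-3p and miR-497b overlap by 22 bases on opposite strands, and since the use of strand in the counting is not given in the sources used here, reads from one and the other cannot be told apart.

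In order of mean level the 13 names ran miR-16-5p, miR-15b-5p, miR-16-1-3p, miR-15a-5p, miR-15b-3p, miR-195a-5p, miR-497a-5p, miR-195a-3p, miR-16-2-3p, miR-15a-3p, miR-497b, miR-497a-3p and miR-195b. Of the 12 pairs of neighbours in this order 4 overlapped over the libraries. They were miR-15a-5p with miR-15b-3p, miR-15b-3p with miR-195a-5p, miR-16-2-3p with miR-15a-3p, and miR-497b with miR-497a-3p. Within each library, however, miR-15a-5p was above miR-15b-3p and miR-15b-3p above miR-195a-5p in 3 of 3 libraries.

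All miRs with the seed AGCAGCA, miR-322-5p included, took 0.197, 0.206 and 0.244% of window reads in replicates 1, 2 and 3 (0.216 ± 0.0247%, SD, n = 3). By this share the seed ranked 21 of 909 seeds. miR-16-5p gave 49.5 ± 4.37% of the reads with the seed, miR-322-5p 31.2 ± 3.26%, miR-15b-5p 10.3 ± 1.13% and miR-15a-5p 4.40 ± 0.206%. miR-195a-5p gave 2.69 ± 0.113% and miR-497a-5p 1.85 ± 0.168%. The share of miR-16-5p was highest in replicate 1, at 54.5%, against 47.2 and 46.7% in replicates 2 and 3, and that of miR-322-5p was lowest there, at 27.5%, against 33.2 and 33.0%. miR-503-5p, a relative on the X chromosome whose seed differs at its last base (AGCAGCG), had 254 ± 42.6 RPMR.

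**Figure D2:**
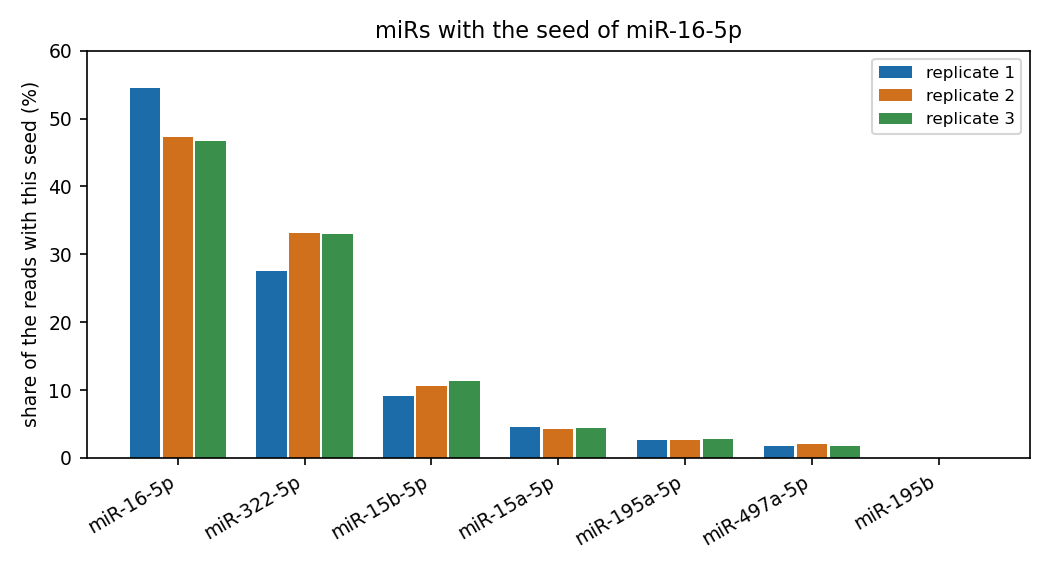
Share of each miR in the reads with the seed of miR-16-5p, in percent, with 1 bar per library (n = 3). miR-16-5p held 46.7 to 54.5% and miR-322-5p 27.5 to 33.2%, and miR-195b is too low to be seen.

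To ask which of these miRs differed in level, each pair that shares the seed was tested with edgeR's quasi-likelihood test, with Benjamini-Hochberg adjustment over the 204 pairs of all seeds. Over all seeds 61.8% of the pairs were called with the first name higher and 34.8% with the second. A call was thus the usual outcome. All 21 pairs of the family's seed were called, but they share miRs and are not independent. The 6 of them with miR-195b, which had 2 reads in all, met the minimum of 10 reads only through the other miR and had to differ, so nothing is read from their calls. miR-16-5p was 1.59-fold above miR-322-5p (log2 difference 0.67 ± 0.11, SE, adjusted p = 0.0014, higher in 3 of 3 libraries). miR-15a-5p was lower than miR-15b-5p, with a log2 difference of -1.23 ± 0.10 (adjusted p = 3.76e-05). miR-195a-5p was 1.46-fold above miR-497a-5p (log2 difference 0.54 ± 0.09, adjusted p = 0.0014), the smallest difference among the 21 pairs.

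Next, the arms of each hairpin were compared. The 5p miR, which carries the seed, was the higher one in all 6 family hairpins with a miR on both arms and in 3 of 3 libraries each. By edgeR's quasi-likelihood test with Benjamini-Hochberg adjustment all 6 were called, where 42.9% of the 373 hairpins tested were called with 5p higher and 43.4% with 3p higher. The median log2 difference, 5p minus 3p, was 2.92 over the 6 and -0.08 over all 373. The 5p arm gave 85.8 ± 0.125% of the family's miR reads (SD, n = 3).

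The size of the bias differed between the hairpins. In Mir497 the 5p miR made up 98.7, 98.7 and 98.6% of miR reads in replicates 1, 2 and 3, and in Mir16-2 98.4, 98.7 and 98.1%. Mir15a had 91.3, 93.5 and 93.8%, Mir195a 80.7, 79.5 and 83.7%, and Mir16-1 81.2, 78.0 and 79.6%. Mir15b had the least, with 68.3, 78.4 and 74.9%. The log2 difference between arms was 6.21 ± 0.25 for Mir497 (adjusted p = 1.11e-12, edgeR), 5.96 ± 0.18 for Mir16-2 (3.73e-14) and 3.72 ± 0.19 for Mir15a (2.66e-11). It was 2.13 ± 0.17 for Mir195a (1.08e-08), 1.97 ± 0.13 for Mir16-1 (1.27e-09) and 1.52 ± 0.16 for Mir15b (3.47e-07).

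For the mir-16 hairpins these values rest on the even split of miR-16-5p. Its 44137.5 reads over both loci were more than the 5634 reads of miR-16-1-3p and the 364 reads of miR-16-2-3p, so the 5p miR exceeded the 3p miRs however it is divided, but not at each hairpin. When all of these reads were given to Mir16-1, the fitted log2 difference between the arms of Mir16-2 turned to -9.92, and when all were given to Mir16-2, that of Mir16-1 turned to -13.88. Each of these fits has 0 reads on the 5p arm, so their sizes depend on the prior count and are no measurement. The 3p miRs had no such limit.

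**Figure D3:**
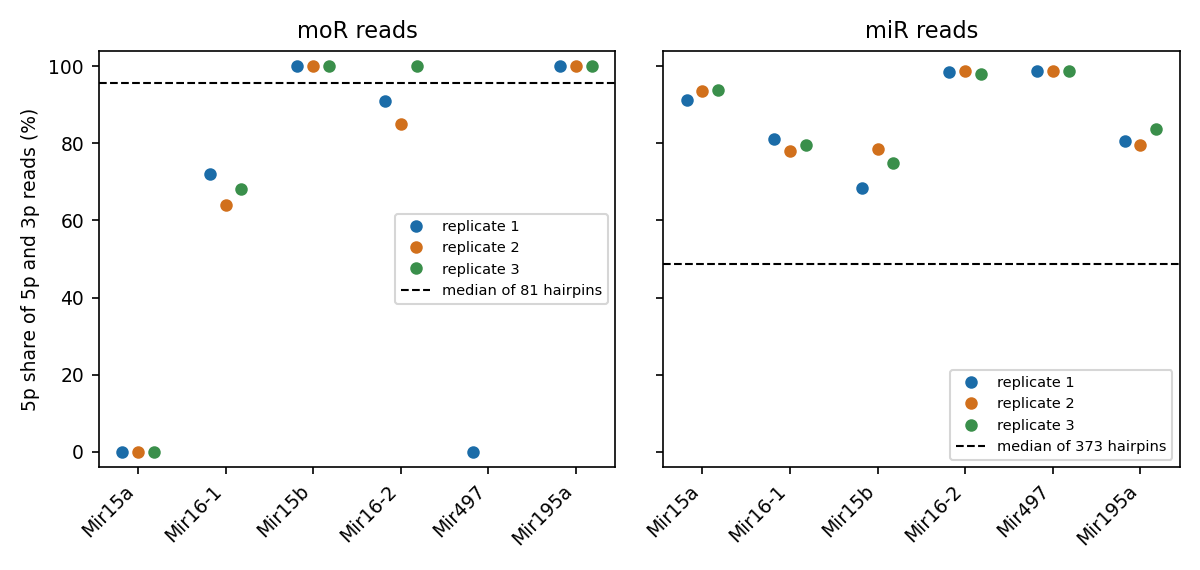
Share of the 5p arm in the 5p and 3p reads of each hairpin, in percent, for moRs (left) and miRs (right), with 1 point per library and the median over all hairpins tested as a dashed line (95.7% of 81 for moRs, 48.8% of 373 for miRs). In miR reads all 6 hairpins lay at 68.3% or above, and in moR reads Mir15a lay at 0% and Mir15b at 100%. The moR points of Mir497 and Mir195a rest on 1 and 3 reads, and libraries with no moR read have no point.

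Mir16-1 and Mir16-2 differ in their 3p miRs, which were counted apart. miR-16-1-3p had 1700, 1717 and 2217 reads in replicates 1, 2 and 3, and miR-16-2-3p had 117, 79 and 168 reads. The 3p miR of the first copy was 15.8-fold higher (log2 difference 3.98 ± 0.20, adjusted p = 0.00244 by edgeR over 28 pairs of copies, of which 28.6% were called as higher in copy 1 and 21.4% as higher in copy 2). Copies whose 3p reads were split evenly were kept among the 28 pairs and could hardly be called. The median log2 difference over the 28 pairs was -1.83e-12, so both shares are lower than among copies that could differ. Over the alternatives the adjusted p of mir-16 ran from 3.69e-71 to 0.0367. The 3p reads differed between copies whose 5p miR could not be assigned.

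In each pair of neighbours the upstream hairpin gave fewer miR reads, both arms summed, than the downstream one. The 3 family pairs were called in that direction by edgeR's quasi-likelihood test with Benjamini-Hochberg adjustment over 158 pairs of neighbours within 10 kb, of which 48.7% were called with the upstream hairpin higher and 43.7% with the downstream one. Mir15a was lower than Mir16-1 by a log2 difference of -2.71 ± 0.07 (adjusted p = 5.02e-05), and Mir15b lower than Mir16-2 by -0.85 ± 0.10 (0.00291). Mir497 was lower than Mir195a by -0.82 ± 0.07 (0.000826). The call for Mir497 and Mir195a does not involve split reads. For Mir15a the order also held against the 5634 reads of miR-16-1-3p alone, since Mir15a had 3950 reads of 5p and 300 of 3p miR. It did not hold in this way for Mir15b, whose 9371 reads of 5p and 3289 of 3p miR stood against 364 reads of miR-16-2-3p. With all reads of miR-16-5p given to Mir16-1 the log2 difference of Mir15b to Mir16-2 turned to 5.14 (adjusted p = 6.96e-05).

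The moRs of the family had few reads, 84, 81 and 96 in the 3 libraries. They were 1.60 ± 0.360% of all moR reads and 0.367 ± 0.0353% of the family's own reads, whereas moRs made up 0.0407 ± 0.00884% of all window reads. That last share was 0.0474 ± 0.0107% when the reads of Mir21a, the hairpin with the most reads, were left out. Of the 14 moR windows 8 had reads. Over all 1295 miR windows, 288 had at least 1 read in the moR window beside them. Of the 8 family moRs with reads, 3 averaged more than 1 RPMR, and the share of all moRs above that level is not given here. No reads were found for moR-15a-5p, moR-15b-3p, moR-497a-5p, moR-195a-3p, moR-195b or moR-497b, which allows up to 0.239 RPMR in the shallowest library.

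moR-15b-5p, just outside miR-15b-5p, had 12, 33 and 43 reads in replicates 1, 2 and 3, or 2.11 ± 1.07 RPMR (SD, n = 3). Replicate 1 was the low one, by 3.22 times against the highest in RPMR. moR-16-5p of Mir16-2 had 20, 17 and 28 reads (1.56 ± 0.257 RPMR). moR-16-5p of Mir16-1 had 31, 16 and 15 reads (1.51 ± 0.675 RPMR), with replicate 1 the high one. The levels of these 3 moRs overlapped over the libraries.

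The remaining moRs stayed under 1 RPMR in every library. moR-16-1-3p had 12, 9 and 7 reads (0.686 ± 0.211 RPMR), moR-15a-3p 5, 2 and 2 reads, and moR-16-2-3p 2, 3 and 0 reads. moR-195a-5p had 1 read in each library and moR-497a-3p 1 read in all. The moRs of the neighbours Mir497 and Mir195a were thus at or under the level of 3 reads over the group.

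**Figure D4:**
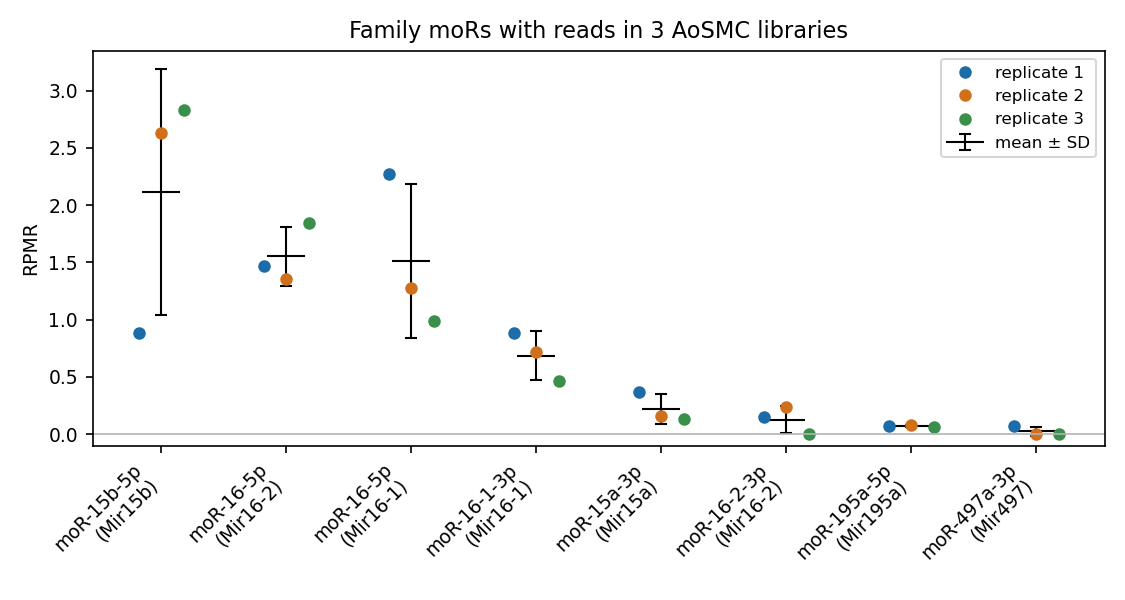
Level in RPMR of the 8 family moRs with reads, with 1 point per library (n = 3) and the mean ± SD in black. Replicate 1 was the lowest for moR-15b-5p, with 12 reads, and the highest for moR-16-5p of Mir16-1, with 31 reads.

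The share of the 2 main loci in the family's moR reads moved between libraries. Mir15b and Mir16-2 on chromosome 3 gave 40.5, 65.4 and 74.0% of them in replicates 1, 2 and 3, and Mir15a and Mir16-1 on chromosome 14 gave 57.1, 33.3 and 25.0%. The miRs of the same loci summed to 809, 772 and 948 RPMR on chromosome 3 and 762, 715 and 829 RPMR on chromosome 14. Most of each sum was miR-16-5p, whose reads were split evenly. The 2 sums thus largely had to move together, and nothing is read from them beside the moR shares. Within chromosome 3, moR-15b-5p was 37.5% (95% exact interval 21.1 to 56.3), 66.0% (51.2 to 78.8) and 60.6% (48.3 to 72.0) of the reads of its 2 5p moRs. Replicate 1 was also the library with the smallest share of reads in windows and of moRs in window reads (0.0305%, against 0.0463 and 0.0454%). The part of this in the moR shares was not tested.

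The 2 copies of moR-16-5p come from flanks with different sequence, so their reads, unlike those of the miR, can be assigned. The part of each RefSeq hairpin that lies before miR-16-5p is printed in lower case, with the first 3 bases of the miR in capitals. From Mir16-1 it is chr14:61631955-61631972 (minus strand) and from Mir16-2 chr3:69009902-69009920 (plus strand).
Mir16-1 5p flank: augucagcggugccuUAG
Mir16-2 5p flank: caugcuuguuccacucUAG
Aligned at the miR, 5 of 15 flanking bases were identical. The moR windows reach 35 bases outward, further than these hairpins. moR-16-5p of Mir16-1 made up 60.8% (46.1 to 74.2), 48.5% (30.8 to 66.5) and 34.9% (21.0 to 50.9) of both in replicates 1, 2 and 3 (exact 95% intervals). The copies were not found to differ (log2 difference of Mir16-1 to Mir16-2 -0.09 ± 0.48, adjusted p = 0.846 by edgeR, higher in Mir16-1 in 1 of 3 libraries). Of the 12 pairs of copies tested 41.7% were called as higher in copy 1 and 33.3% as higher in copy 2. The direction for mir-16 turned to 0.32 (adjusted p = 0.55) without replicate 3 and was -0.53 without replicate 1.

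The arms of the moRs were compared in the 3 family hairpins with at least 10 moR reads, and all 3 were called with 5p higher. Of these, Mir15b and Mir16-2 met the minimum only through their 5p arm. Their direction was set by that minimum, so nothing is read from their calls. Over the 81 hairpins tested, 81.5% were called with 5p higher and 11.1% with 3p higher (edgeR's quasi-likelihood test, Benjamini-Hochberg adjustment). Mir15b had 88 reads on the 5p arm, or 29.3 times the floor of 3 reads over the group, and 0 on the 3p arm. Mir16-2 had 65 and 5 reads, with a fitted log2 difference of 3.59 ± 0.55. Mir16-1 had 62 and 28 reads, and its log2 difference of 1.12 ± 0.38 (adjusted p = 0.00444) was the smallest of the 3. This call was lost with DESeq2 (adjusted p = 0.162) and, in edgeR, without replicate 1 (0.0527) or replicate 2 (0.0755).

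Mir15a had too few moR reads for the test, and those it had were on the 3p arm. It had 0 reads of moR-15a-5p and 9 of moR-15a-3p, or 3 times the floor of 3 reads, while 92.9 ± 1.38% of its miR reads were 5p. Fitted without the minimum of 10 reads, its moR arms had an adjusted p of 0.102. moR-15b-5p had 88 reads, or 29.3 times that floor, against 0 of moR-15a-5p. The 2 miRs beside them are near relatives that differed 2.34-fold in level.

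Each moR with a read was set against the miR of its own arm. Of the 243 arms tested with edgeR's quasi-likelihood test, 91.8% had less moR than miR and 5.76% had more. The 8 family arms in that test had less, but those of moR-15a-3p, moR-16-2-3p, moR-195a-5p and moR-497a-3p, with 9, 5, 3 and 1 moR reads, met the minimum of 10 reads only through their miR, so their direction was set by that minimum. For the other 4 arms the log2 difference, moR minus miR, was -6.78 ± 0.28 for 15b-5p (adjusted p = 3.69e-85), -8.41 ± 0.31 for 16-5p of Mir16-2 (6.14e-100), -8.48 ± 0.31 for 16-5p of Mir16-1 (2.74e-100) and -7.62 ± 0.31 for 16-1-3p (1.45e-87). The values for 16-5p use the split reads of the miR. Nothing is read from the call of moR-497a-3p, with 1 read against 22 of its miR, which was lost without replicate 3.

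Per 1000 reads of the miR on the same arm, pooled over the libraries, there were 9.39 reads of moR-15b-5p (95% exact interval 7.52 to 11.6, which covers counting error only). By this rate it ranked 7 of the 135 5p arms with at least 1000 miR reads, whose median was 0.0997. In replicates 1, 2 and 3 the rate was 4.91, 12.0 and 10.3. moR-16-5p had 2.94 (2.27 to 3.75) at Mir16-2, with rank 16, and 2.81 (2.15 to 3.61) at Mir16-1, with rank 17. moR-195a-5p had 1.24 (0.255 to 3.62).

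No moR read was found beside the 3950 reads of miR-15a-5p, which allows a rate of up to 0.759 per 1000 by the limit of 3 counts, nor beside the 1651 reads of miR-497a-5p, which allows up to 1.82. The rates of moR-15b-5p and of moR-15a-5p thus had intervals that did not overlap (the upper bound of the second was 0.934). A count of 0 was common, however. Among arms with at least 1000 miR reads, 49 of the 135 5p arms and 53 of the 110 3p arms had no moR read. On the 3p side moR-16-1-3p had 4.97 reads per 1000 (3.30 to 7.19) and ranked 5 of 110 3p arms with at least 1000 miR reads, whose median was 0.00427. Higher rates stood beside less abundant 3p miRs, with few moR reads and wide intervals. moR-15a-3p had 30 per 1000 (13.6 to 57.7), from 9 reads against 300 of its miR, and its interval lay above that of moR-15b-5p. moR-16-2-3p had 13.7 (4.43 to 32.4), from 5 reads against 364, and moR-497a-3p had 45.5 (1.10 to 281), from 1 read against 22. In Mir16-1 the 3p rate was above the 5p rate in each library, at 7.06, 5.24 and 3.16 per 1000 against 4.23, 2.62 and 1.74. A difference between rates was not tested, and the 5p rates of the mir-16 hairpins rest on the even split.

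**Figure D5:**
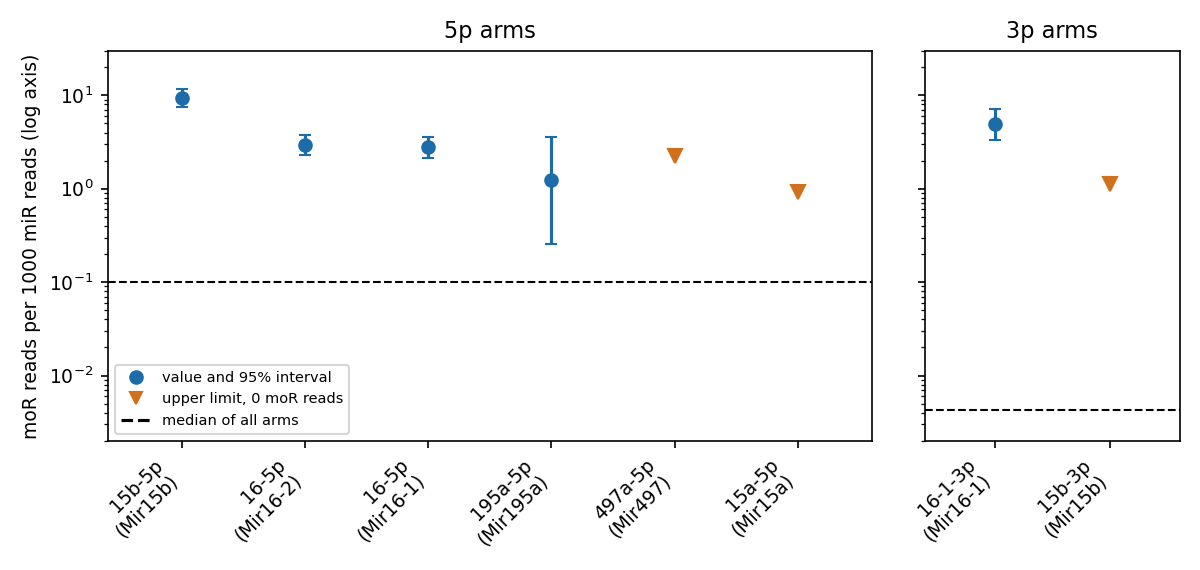
moR reads per 1000 miR reads of the same arm on a log axis, pooled over 3 libraries, for the family arms with at least 1000 miR reads. Circles are values with 95% exact intervals, triangles are upper 95% limits of arms with 0 moR reads, and dashed lines are medians over the 135 5p arms and the 110 3p arms of the tables. Among these arms moR-15b-5p was the highest, at 9.39.

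As a description, each family hairpin with at least 1 RPMR on both miR arms was set beside 484 other hairpins by the mean absolute difference of log2(RPMR + 0.1) over 12 values, those of 5p and 3p miR and moR in 3 libraries. Mir195a was nearest to Mir434 (0.39) and Mir339 (0.42), and Mir15a to Mir126b (0.61) and Mir339 (0.63). Mir16-2 was nearest to Mir7-1 (0.71) and Mir744 (0.71). Mir15b was nearest to Mir503 (0.84) and Mir361 (0.96), and Mir16-1 to Mir322 (1.17) and Mir145a (1.21). No family hairpin was among the nearest 2 of another. These distances share libraries and depth and have no test.

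moRs were also found for the X-linked relatives with the same or nearly the same seed. moR-503-5p had 43, 45 and 54 reads (3.43 ± 0.242 RPMR) and moR-322-5p 16, 19 and 18 reads (1.29 ± 0.193 RPMR). The range of moR-503-5p over the libraries lay above that of each family moR. miR-322-3p, at 809 ± 167 RPMR, lay above miR-322-5p, at 677 ± 131 RPMR, in each library, which is given without a test. Each 3p miR of the family instead lay below its 5p partner, with the reads of miR-16-5p split as deposited.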

How the data were processed

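Small RNA libraries of AoSMC were read as single reads of 75 bases. The authors mapped inserts longer than 13 bases to mm10 with Bowtie, whose version is not given in the sources used here, allowing 0 mismatches and at most 5 loci, and divided reads near several precursors evenly. A miR read had to lie within 3 bp of the miRBase coordinates, and a moR read had to lie in a window from 35 bp outside the outer end of the miR to 3 bp inside it. The authors deposited reads per window, which are expected counts, since a divided read adds a fraction. Within 1e-09, 96.1% of all values were whole, and so were all but 3 of the 84 family values, the 3 being miR-16-5p reads. RPMR, which the authors deposited beside the reads, are RPM values whose denominator is all window reads of the library. RPMR recomputed from the counts differed from them by at most 7.28e-12.

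The quasi-likelihood test of edgeR 4.0.16, run in R 4.3.3, was applied to reads rounded to whole numbers, and each library formed a block. Library sizes were the window reads without another scaling. Pairs are given by the design, as both RNAs of a pair are from 1 library. Every pair of the table with at least 10 reads was fitted, and adjusted p under 0.05 was called. The SE beside a log2 difference is its absolute size divided by the square root of the test's F statistic. The tests were tested on simulated data. Alternatives were DESeq2 1.42.0, TMM scaling, minimums of 30 reads and of 1 read, no block, each library left out, and levels per 1000000 mapped reads or without Mir21a. Giving all miR-16-5p reads to 1 copy was added after seeing the data. Intervals are 95% exact (Clopper-Pearson) intervals from SciPy 1.17.1 and cover counting error only. Other steps used Python 3.11.15, numpy 2.4.6, pandas 2.3.3 and matplotlib 3.10.9. Gene positions are from GENCODE (mm10).

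The items named are every family window, any other miR with the seed, and for each eligible hairpin the 2 nearest others. A fixed list on the X chromosome held the relatives mir-322 and mir-503 and their neighbours mir-351, mir-542, mir-450a and mir-450b. Of that list only mir-322 and mir-503 are described above. The members and lists were chosen with earlier results of these data known. Columns of the libraries were matched by replicate number, and no column was left unmapped.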

Additional observations from a re-analysis of the deposited data

How the results depend on the processing

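Of 361 alternative fits of the family's pairs, those with miR-322-5p included, 353 kept the direction and the side of the threshold. The exceptions are the arms of the mir-16 hairpins (log2 -9.92 for Mir16-2 and -13.88 for Mir16-1) and Mir15b to Mir16-2 (5.14) when the split reads of miR-16-5p went to 1 locus, an alternative chosen after seeing the data, moR-16-5p of copy 1 to copy 2 (-0.09, from -0.53 to 0.32 without a library), the moR arms of Mir16-1 with DESeq2 (adjusted p = 0.162) and without replicate 1 or 2 (0.0527 and 0.0755), and moR-497a-3p to its miR without replicate 3 (0.0765). The first 3 follow from the 0 reads of miR-16-5p left at 1 locus, and for the others the cause was not tested. The count of 353 is no measure of stability. In pairs that met the read minimum only through 1 RNA, such as those with miR-195b, that minimum set the direction. TMM scaling gives both RNAs of a library the same factor, so it could hardly change a fit.

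Counts over all hairpins moved as follows. For moR arms, 66 hairpins were called with 5p higher, and 42 with a minimum of 30 reads, where only 47 were tested. Those with 3p higher were 9 in all, 4 with DESeq2 and 4 with the minimum of 30 reads. Leaving out a library gave 38 to 55 with 5p higher and 3 to 5 with 3p higher. moRs above their miR numbered 14, and 7 to 12 without a library. For copies of 5p moRs the first was higher in 5 and the second in 4 of 12 pairs, against 2 and 2 with DESeq2, 3 for the first with a minimum of 1 read, and 2 to 5 for the first without a library. The family miRs summed to 1724 RPMR, to 1370 per 1000000 mapped reads and to 3584 RPMR without the reads of Mir21a, and the moRs to 6.31, 5.02 and 13.1. The seed took 0.172% of all mapped reads. Without the replicate block each family pair tested kept its call, as in the log2 difference of -2.71 for Mir15a to Mir16-1. Family moRs had at most 43 reads in a library, which limits what could be seen for them.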
